A study of Mus musculus with 160 samples.

Results

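High levels of striated muscle genes were found in a minority of the distal colon samples. The 41 genes described here encode the contractile machinery of striated muscle and the proteins that anchor, excite and fuel it. They were taken by symbol from a list made with earlier results of these data in view, and all 41 were among the 39179 genes counted. Distal colon RNA of 160 mice from 4 knockout lines was sequenced, with 16 labelled homozygous knockout and 15 wild-type samples for Nckap1l (labelled HEM1), 18 and 24 for Dock2, 20 and 20 for Gpsm3, and 26 and 21 for Dok3. Nckap1l, Dock2 and Dok3 act in signalling and cytoskeletal control of blood cells, and Gpsm3 regulates G-protein signalling. The mice were 8 to 10 weeks of age, and the knockouts and wild types came from crosses of heterozygotes. The labels give the strain as C57BL6/J for the Nckap1l, Dock2 and Gpsm3 lines and as 129 for Dok3. The Nckap1l samples came from 12 females and 19 males and the Dock2 samples from 20 females and 22 males, and all Gpsm3 and Dok3 samples were labelled male. Per the labels, dextran sulphate sodium (DSS), which injures the colon epithelium, was in the drinking water for 5 days, then water alone was given, and tissue was taken on day 10, or on day 12 in the Nckap1l line. The concentration stated in the labels was 3% for Dock2 and Gpsm3 and 3.5% for Dok3, with none stated for Nckap1l. The methods describe a dose slightly lower than 3% for the Nckap1l knockouts. For Dok3 they describe 3% in a first round of experiments and 3.5% after it. The methods name both treated and untreated mice, and no label says which samples received DSS, so treatment could not enter any comparison.

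In striated muscle, myosin thick filaments pull on actin thin filaments within the sarcomere, the repeating unit that runs from one Z-disc to the next. Calcium released from the sarcoplasmic reticulum binds troponin and frees the actin for contraction. Fibre types differ in the myosin heavy chain they carry. Myh7 marks slow fibres, Myh2 fast oxidative fibres, Myh1 an intermediate fast type and Myh4 the fastest, glycolytic type. The muscle coat of the mouse colon is smooth muscle, which contracts with another set of myosin and actin genes. Striated muscle lies at the lower end of the bowel in the external anal sphincter and the pelvic floor, next to the squamous epithelium of the anal canal and perianal skin, in which keratins such as Krt1 are made.

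The promoters of 4 genes are shown because the results below turn on them. They are the skeletal actin gene Acta1, whose ranges in the 2 sets of samples described below lay apart, and the neighbouring heavy chain genes Myh2, Myh1 and Myh4 of chromosome 11, whose proportions differed between samples. Each is the 250 bases before the transcription start in RefSeq, on GRCm38.p6, read 5′ to 3′ along the gene. Acta1 lies at chr8:123894776-123895025 on the minus strand, and Myh2 at chr11:67170777-67171026, Myh1 at chr11:67199852-67200101 and Myh4 at chr11:67237562-67237811 on the plus strand. Capitals mark matches, on either strand, to CAGCTG (a form of the E-box bound by myogenic factors), to the MEF2 motif, to the CArG box bound by serum response factor, and to TATAAA, one match of which lies, on the other strand, within the MEF2 match of Myh1 and likewise of Myh4.
Acta1: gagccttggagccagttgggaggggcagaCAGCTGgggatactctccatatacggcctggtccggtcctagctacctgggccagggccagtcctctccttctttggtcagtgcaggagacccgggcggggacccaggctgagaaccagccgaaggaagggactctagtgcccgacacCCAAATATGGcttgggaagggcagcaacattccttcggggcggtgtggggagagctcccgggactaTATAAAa
Myh2: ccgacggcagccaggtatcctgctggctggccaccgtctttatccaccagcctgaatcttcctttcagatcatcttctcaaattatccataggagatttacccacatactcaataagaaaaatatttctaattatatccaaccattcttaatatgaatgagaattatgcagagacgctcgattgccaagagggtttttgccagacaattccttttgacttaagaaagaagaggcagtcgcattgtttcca
Myh1: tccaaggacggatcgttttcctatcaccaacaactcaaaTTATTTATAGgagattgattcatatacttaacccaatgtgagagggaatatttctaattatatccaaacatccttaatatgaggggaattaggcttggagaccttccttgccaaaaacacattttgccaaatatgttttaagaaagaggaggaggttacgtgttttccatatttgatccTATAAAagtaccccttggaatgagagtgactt
Myh4: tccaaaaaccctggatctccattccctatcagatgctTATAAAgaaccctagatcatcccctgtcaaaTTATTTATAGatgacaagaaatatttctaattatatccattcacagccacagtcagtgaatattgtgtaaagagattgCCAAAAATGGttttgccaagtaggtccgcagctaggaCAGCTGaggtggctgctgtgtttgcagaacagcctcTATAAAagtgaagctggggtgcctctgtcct
Acta1 held 1 CArG, 1 CAGCTG and 1 TATAAA match, and Myh1 held 1 MEF2 and 2 TATAAA matches. Myh4 held 1 MEF2, 1 CArG, 1 CAGCTG and 3 TATAAA matches, and Myh2 held none of these letters in this window. RefSeq promoters were matched for 33 of the 41 genes. CAGCTG was present in 17 of the 33 (51.5%), against 14.7% of 27025 genes with a promoter of the same length. The MEF2 motif was present in 7 (21.2%, against 3.42%), the CArG box in 4 (12.1%, against 1.62%) and TATAAA in 6 (18.2%, against 14.3%). The general E-box CANNTG, which contains CAGCTG, was present in 28 (84.8%, against 69.3%). These matches describe letters, not bound sites.

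Total counts per sample ran from 4344988 to 19993833, with a median of 15989625. A count of 3 corresponded to 0.15 to 0.69 counts per 1000000 counts of the sample (CPM), which was taken as the limit of detection. The targeted gene overlapped between genotypes in each line, so its level did not check the labels. The deleted part of each gene is not given, and reads outside it are counted too. Nckap1l, for example, lay between 4.66 and 70.0 CPM in knockouts (median 14.8) and between 13.7 and 134 CPM in wild types (median 27.6). In 5 samples of the Dok3 line labelled male, Xist was at 2500 CPM or more and the Y-linked Ddx3y at 0.402 CPM or less, and their summed striated muscle genes were only 253 to 355 CPM. Sample numbers in the labels fall into runs within the Nckap1l, Gpsm3 and Dok3 lines, and what a run stands for is not in the labels. The runs were compared within each of these lines. The main genotype and sex comparisons held no term for run, which entered only as an alternative.

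The summed CPM of the 41 genes divided the samples into a large group with low sums and a small group far above it. Ordered by this sum, the samples had their widest gap between 1356 and 3540 CPM, a 2.61-fold step. Below the gap lay 130 samples, and above it 30, the highest of which, Dok3 wild type 3, reached 62450 CPM, or 6.24% of all its counts. The gap was defined on the genes themselves, so differences across it are descriptive and were not tested. By another rule, under which a sample carries the genes when at least 21 of the 41 are at 1 CPM or more, 54 samples did so. That count depended on its cut-off and was 155 at 0.5 CPM, 32 at 5 CPM and 34 when at least 31 genes were required. In bulk tissue a larger share of muscle cells and more muscle RNA per cell cannot be told apart.

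**Figure D1:**
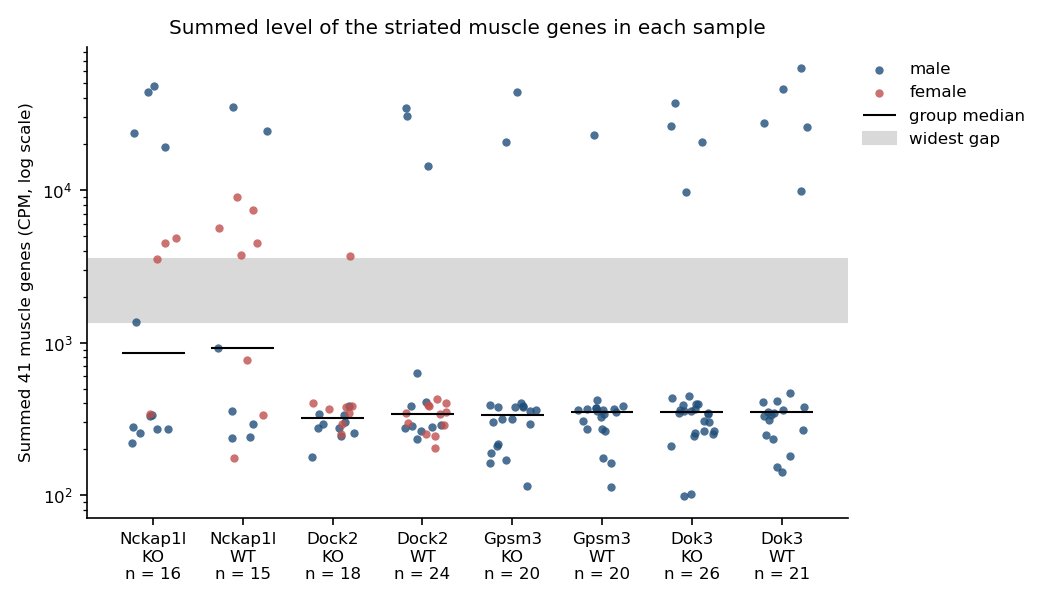
Summed CPM of the 41 striated muscle genes (log axis) in each of the 160 samples, by line and genotype, with each point 1 sample, coloured by sex, the short line the group median and the grey band the widest gap. Samples above the gap between 1356 and 3540 CPM are found in every line and in both genotypes, and 14 of the 30 belong to the Nckap1l line.

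Samples above the gap were found in each of the 8 groups. They made up 7 of 16 knockouts and 7 of 15 wild types in the Nckap1l line, 1 of 18 and 3 of 24 in Dock2, 2 of 20 and 1 of 20 in Gpsm3, and 4 of 26 and 5 of 21 in Dok3. In all, 14 of 80 knockouts (17.5%) and 16 of 80 wild types (20%) lay above it. By sex as labelled, 9 of 32 females (28.1%) and 21 of 128 males (16.4%) did. The group medians of the sum were alike between genotypes, at 848 CPM in Nckap1l knockouts and 926 CPM in wild types, 319 and 342 CPM in Dock2, 337 and 352 CPM in Gpsm3, and 350 and 353 CPM in Dok3.

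In the Nckap1l line the split followed the run of sample numbers. Of the 14 samples of the first run, 13 lay above the gap, against 1 of 9 in the second run and 0 of 8 in the third. The 5 males of the first run held between 19200 and 47850 CPM. Of its 9 females, 8 held between 3540 and 9027 CPM, and the ninth, wild type 8, held 174.3 CPM. The only later sample above the gap was knockout 8, at 23630 CPM. Samples above the gap were spread over both runs in the Dok3 line (6 of 30 and 3 of 17) and in the Gpsm3 line (1 of 20 and 2 of 20).

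Members of the thin filament and the Z-disc mostly lay apart across the gap, as did those of the other fast and energy families. Acta1, the actin of skeletal muscle, lay between 2.12 and 53.9 CPM below the gap (median 6.20) and between 227 and 3213 CPM above it (median 1308). Its lowest, median and highest values were 2.12, 32.5 and 2679 CPM in Nckap1l knockouts and 4.14, 38.9 and 1741 CPM in wild types. In the Dock2 line they were 2.16, 6.20 and 245 CPM in knockouts and 2.98, 7.58 and 1571 CPM in wild types. Every group therefore held both low and high samples, and the genotypes overlapped throughout. In the Gpsm3 line Acta1 was at 2.42, 5.61 and 2524 CPM in knockouts and 2.35, 5.48 and 1537 CPM in wild types, and in the Dok3 line at 2.33, 7.79 and 2215 CPM and at 3.43, 9.87 and 3213 CPM. Per kilobase of exon, Acta1 was the most abundant of the 41 genes in the samples above the gap, with a median of 852 CPM per kb. Tnnt3, Myh1, Mylpf and Tnni2 followed it at 321, 279, 270 and 168 CPM per kb.

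The giant proteins dominated the counts. Titin (Ttn), the spring that spans the sarcomere from Z-disc to M-line, took a median 55.4% of the summed CPM above the gap, between 2095 and 33502 CPM, against 13.5 to 633 CPM below it. Nebulin (Neb), the ruler of the thin filament, lay between 3.33 and 66.7 CPM below the gap and between 223 and 3939 CPM above it. Of the 13 actin, Z-disc and filament scaffold genes, 9 had ranges that did not overlap across the gap. They included the alpha-actinin Actn2 (at most 4.97 CPM below and at least 22 CPM above), the telethonin gene Tcap (at most 1.79 and at least 7.71 CPM) and the actin-binding Xirp2 (at most 11.7 and at least 20.7 CPM). The others were Acta1, Ttn, Neb, Ldb3, Myoz1 and Klhl41. The ranges of the fast-fibre alpha-actinin Actn3 and of Smpx, Myot and Nrap overlapped, with Nrap at a median of 27.1 CPM even below the gap. Over the 41 genes, 24 had ranges apart, a count that the choice of genes and of gap fixes in large part. Among all 16770 genes with a mean of at least 1 CPM, 296 (1.77%) did.

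**Figure D2:**
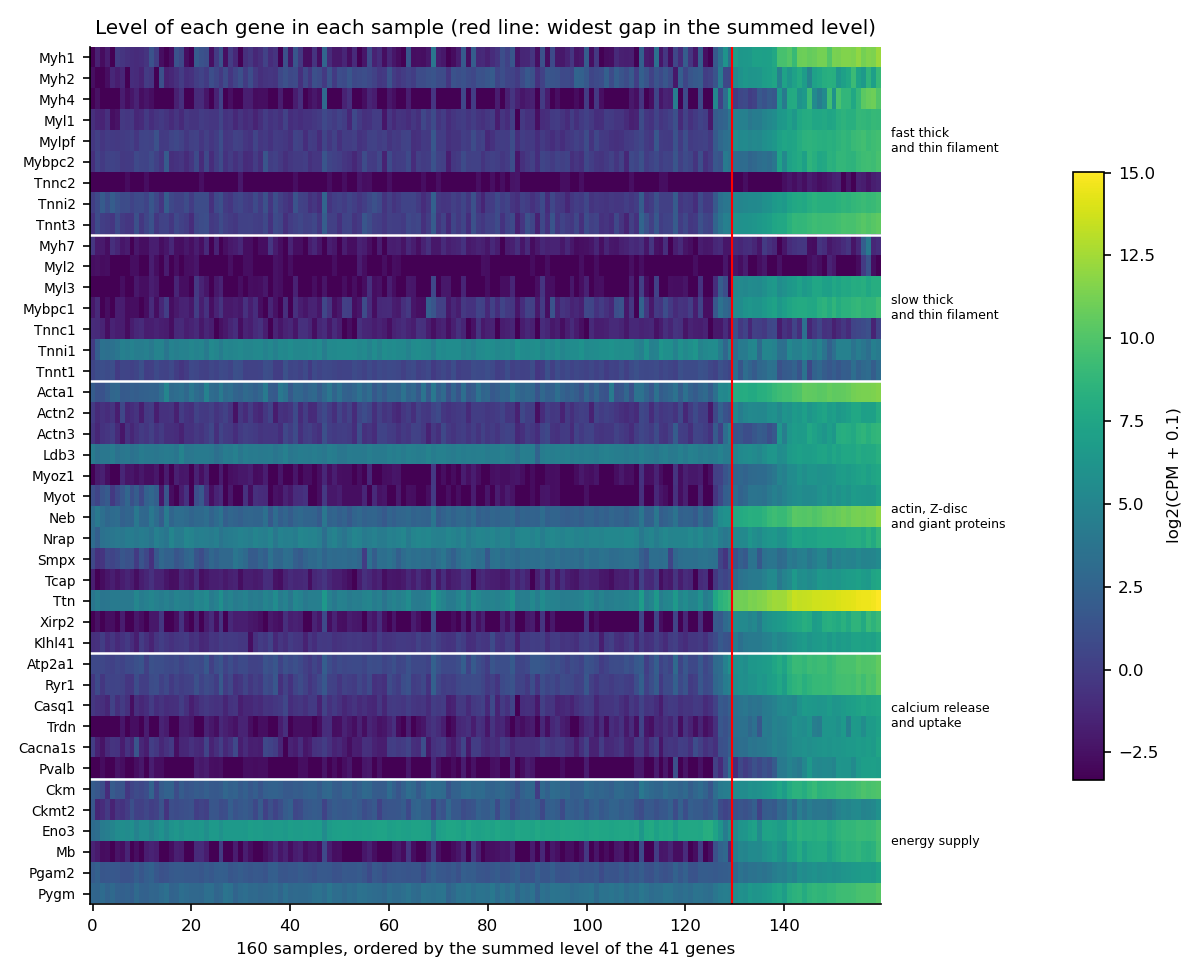
Heat map of log2(CPM + 0.1) of the 41 genes (rows, grouped by role) in the 160 samples (columns, ordered by summed CPM of the 41 genes). Most rows turn from low to high in the 30 columns at the right, whereas Tnni1 is lower in the median there (39.4 and 23.2 CPM) and Tnnc1, Tnnc2, Myl2 and Myh7 have medians under 1 CPM on both sides.

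Fast-fibre genes of the thick and thin filaments were high in the samples above the gap. The fast regulatory light chain Mylpf lay between 0.341 and 12.0 CPM below it and between 35.1 and 711 CPM above it, and the fast troponin T gene Tnnt3 between 0.215 and 25.4 CPM and between 62.4 and 1395 CPM. The fast inhibitory troponin Tnni2 ran from 0.282 to 15.1 CPM below the gap and from 33.3 to 685 CPM above it, with group medians between 0.866 and 14.3 CPM. Myl1, the essential light chain of fast muscle, and Mybpc2, its myosin-binding protein C, had medians of 184 and 202 CPM above the gap. Fast troponin C (Tnnc2) was the exception, at no more than 0.256 CPM in any sample. In the annotation, 74.0% of the exon bases of Tnnc2 overlap Ube2c on the opposite strand, so its counts are uncertain.

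Slow-fibre genes gave a mixed picture. Myl3, the light chain of slow and ventricular muscle, and Mybpc1, the slow myosin-binding protein C, separated fully, at 35.2 to 296 CPM and 46.2 to 644 CPM above the gap against at most 4.21 and 11.9 CPM below it. The slow heavy chain Myh7 did not exceed 0.665 CPM below the gap and had a median of 0.384 CPM above it, with a highest value of 18.9 CPM in Dok3 wild type. Its partner light chain Myl2 stayed at or below 2.53 CPM, and slow troponin C (Tnnc1) had medians of 0.224 and 0.738 CPM on the 2 sides. The slow troponin T gene Tnnt1 lay between 0.597 and 2.36 CPM below the gap (median 1.35) and between 1.45 and 12.5 CPM above it (median 5.25). The slow troponin I gene Tnni1 went the other way, with a median of 39.4 CPM below the gap and 23.2 CPM above it. Group medians of Tnni1 ran from 24.9 to 45.8 CPM, so it was measured in colon samples whether or not they carried the fast genes. Within the 30 samples above the gap, Spearman's rho of Tnni1 with the sum of the other members was −0.16, and those of Tnnt1, Tnnc1 and Myl2 were −0.03, −0.03 and 0.02. Myh2 stood at 0.63.

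Genes of excitation and calcium handling and genes of energy supply followed the fast filament genes. The calcium pump Atp2a1 of the sarcoplasmic reticulum lay between 0.725 and 63.3 CPM below the gap and between 51.7 and 1555 CPM above it, a narrow overlap. The calcium release channel Ryr1 (at most 27.4 and at least 49.3 CPM) and the calcium store protein Casq1 (at most 4.83 and at least 11.3 CPM) had ranges apart, as did the voltage sensor Cacna1s (at most 4.83 and at least 9.09 CPM). The ranges of Trdn, which anchors the release complex, and of the calcium buffer Pvalb overlapped. Ckm, the cytosolic creatine kinase of muscle, ranged from 0.411 to 23.7 CPM below the gap and from 45.7 to 995 CPM above it. The oxygen carrier myoglobin (Mb) ran from 0 to 7.18 CPM and from 21.4 to 667 CPM, and the muscle glycogen phosphorylase Pygm from 4.47 to 22.9 CPM and from 47.4 to 1159 CPM. The muscle enolase Eno3 was at a median of 134 CPM even below the gap (281 CPM above it), and Ckmt2 overlapped too.

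Fibre types were read from the share of each heavy chain, per kilobase of exon, among Myh1, Myh2, Myh4 and Myh7 together. These genes are close paralogs, so reads shared between them could have been lost or moved in counting. The developmental heavy chain Myh8, described further on, was also abundant and is left out of these shares, which hold only among the 4. In the samples above the gap Myh1 made up a median 74.1% (53.1 to 92.5%), Myh2 9.12% (1.11 to 44.9%), Myh4 3.86% (0.578 to 43.3%) and Myh7 0.0192% (at most 0.27%). Across the 54 samples that carried the genes by the 1 CPM rule, the medians were 61.5% for Myh1, 14.6% for Myh2, 9.97% for Myh4 and 0.105% for Myh7. Myh1 lay between 82.0 and 4995 CPM above the gap and at most at 68.9 CPM below it. Myh2 lay between 25.1 and 586 CPM above it and at most at 21.2 CPM below. Myh4 spanned 0.892 to 2008 CPM above the gap and reached 158 CPM below it, so it alone of these 3 overlapped.

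By group, Myh1 had medians of 6.59 CPM in Nckap1l knockouts and 68.9 CPM in wild types, and between 0.158 and 2.67 CPM in the 6 other groups. Its highest value was 82.0 CPM in Dock2 knockouts and between 1685 and 4995 CPM elsewhere, so 7 of the 8 groups held at least 1 sample rich in it. Myh2 had group medians of 1.25 to 2.25 CPM except in Nckap1l wild types (21.2 CPM), and its highest value was in Dok3 knockouts (586 CPM). Myh4 had group medians of at most 1.07 CPM, and its highest value lay between 435 and 2008 CPM except in Dock2 knockouts (1.37 CPM). Ckm had medians of 15.4 and 21.8 CPM in Nckap1l knockouts and wild types and of 4.93 to 7.57 CPM in the other groups. In each of these genes the genotypes overlapped within every line.

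Above the gap, the share of Myh2 lay apart between the sexes. There the 9 females had 23 to 44.9% Myh2 and 0.578 to 1.63% Myh4, and the 21 males had 1.11 to 15.2% Myh2 and 0.881 to 43.3% Myh4. The ranges of the Myh4 share overlapped. In the first Nckap1l run the Myh2 share was 37.3% ± 7.64 (SD, n = 9) in females and 5.95% ± 4.75 (SD, n = 5) in males. The difference was 31.4 percentage points, and 32.1 without wild type 8, which lay below the gap with Myh1 and Myh2 at 0.382 CPM each. It was noticed in these samples, so no test is given. The 5 males carry lower sample numbers than the 9 females, so sex and number order cannot be told apart here. In the Dock2 line the single female above the gap had 40.7% Myh2 and the 3 males 2.08 to 4.73%. Below the gap the sexes overlapped. Shares there were taken in samples that either carried the genes by the 1 CPM rule or had at least 100 counts of the 4 heavy chains. By label these were 22 males and 3 females. Myh2 made up 0.464 to 96.1% in the males and 42 to 84% in the females, and 9 of the 22 males were at 23% or more. The labelled males include Dok3 knockout 1 (22.5% Myh2) and Dok3 knockout 3 (39.8%). Their Xist was at 3470 and 2950 CPM and their Ddx3y at 0.402 and 0.0666 CPM, against their label. The shares below the gap rest on fewer counts, with a median of 89 per labelled male. Myh2 also had a higher median below the gap (1.47 CPM) than Myh1 (0.309 CPM).

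**Figure D3:**
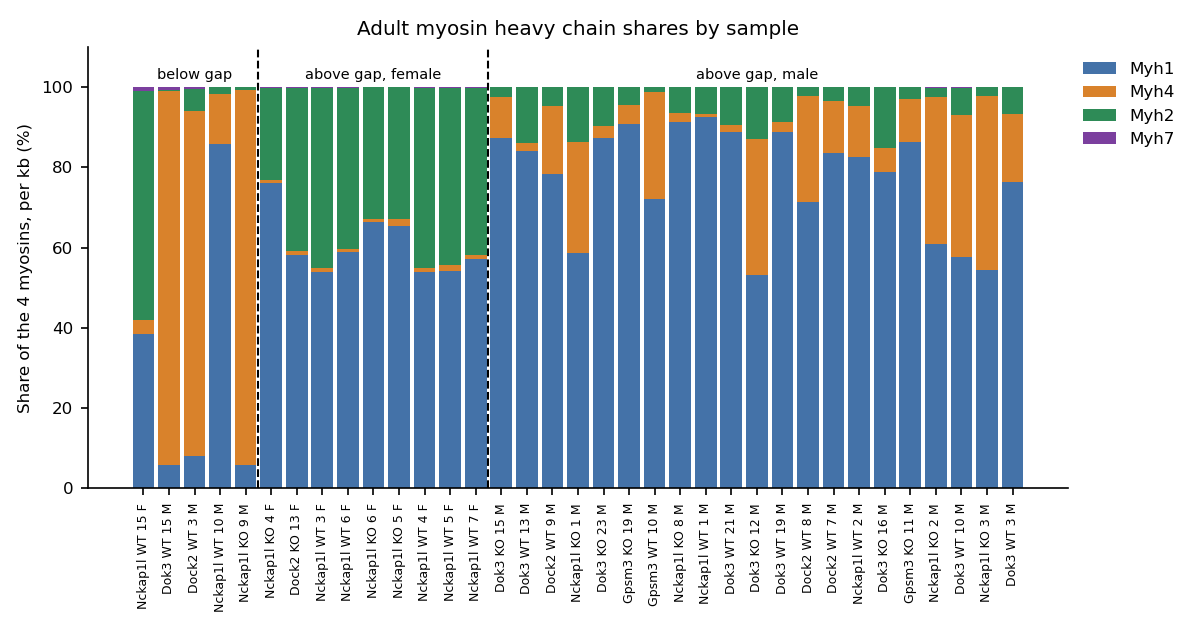
Share (percent, per kilobase of exon) of Myh1, Myh2, Myh4 and Myh7 among these 4 heavy chains in the 30 samples above the gap and in the samples below it with at least 300 counts of these genes, 1 bar per sample, marked F or M for the labelled sex. Above the gap Myh1 is the largest share in every bar (at least 53.1%), and the Myh2 share is at least 23% in females and at most 15.2% in males.

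A few samples below the gap held a small amount of muscle RNA with other heavy chain shares. Nckap1l knockout 9, the highest of them with a sum of 1356 CPM, had 93.5% Myh4 among 2849 counts of the 4 heavy chains, and Krt1 at 0 CPM. Dock2 wild type 3 had 86.1% Myh4 (687 counts) and Krt1 at 0 CPM, and Dok3 wild type 15 had 93.2% Myh4 (366 counts) and Krt1 at 1.39 CPM. These 3 males were therefore rich in the fastest heavy chain, at shares above the highest found in the 30 samples over the gap (43.3%). Nckap1l wild type 10, with 925.7 CPM, had instead 85.9% Myh1 (1402 counts), with Krt1 at 1.43 CPM. Nckap1l wild type 15, a female, had 57.2% Myh2 (562 counts) and Krt1 at 150 CPM. Gpsm3 wild type 3, a male, had 96.1% Myh2 on only 109 counts, but its sum of 373.1 CPM was near its group median of 352 CPM. Below the gap Myh2 had a median of 1.47 CPM, against 0.309 CPM for Myh1, so the Myh2 share of that sample does not by itself show muscle RNA.

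The developmental heavy chain Myh8, which is made in perinatal muscle and kept in a few specialised adult muscles and was not among the 41 genes, was at 411 to 5740 CPM above the gap. Per kilobase of exon its median there was 207 CPM, against 279 CPM for Myh1. With Myh8 added to the 4 heavy chains, an alternative added after the data had been seen, the median shares above the gap were 48.3% for Myh1, 37% for Myh8 (25.5 to 68.4%), 5.22% for Myh2 and 2.69% for Myh4. Myh1 was then the largest share in 19 of the 30 samples and Myh8 in 11. Below the gap, Myh8 was at most 103 CPM, in Nckap1l wild type 10, and it was at 0 CPM in Nckap1l knockout 9. The embryonic heavy chain Myh3 was at most 0.344 CPM below the gap and had a median of 0.318 CPM above it. It reached 146 CPM in 1 sample, Gpsm3 knockout 19. Of 85 other striated muscle genes, 34 had ranges apart across the gap, and the list summed to 757 to 1910 CPM below it and 1810 to 15000 CPM above it. Among 22 genes of myogenic factors and the neuromuscular junction, 4 had ranges apart. They were the myogenic factors Pax3 (at most 0.125 and at least 0.241 CPM) and Myf6 (at most 0.456 and at least 0.723 CPM), the muscle sodium channel Scn4a (at most 2.92 and at least 4.52 CPM) and the potassium channel Kcna7. The values of Pax3 and Myf6 nearest the gap lay around the limit of detection. Of all genes with a mean of at least 1 CPM, 1.77% had ranges apart. Of 11 cardiac muscle genes none had ranges apart.

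Krt1, the keratin of cornifying squamous epithelium, accompanied the striated muscle genes. All 30 samples above the gap had Krt1 at 530 CPM or more (median 1430, highest 4900), and the median below it was 0.252 CPM. Of the 130 samples below the gap, 4 had Krt1 at 10 CPM or more. These were Dock2 wild type 15 at 647 CPM, Nckap1l wild type 15 at 150 CPM, Dok3 wild type 14 at 17.2 CPM and Dok3 knockout 14 at 13 CPM. Dock2 wild type 15 had striated muscle genes of 389.4 CPM in sum. Nckap1l wild type 15 had 770.6 CPM and so held some muscle RNA. Krt1 at 100 CPM or more in a sample below the gap thus occurred in 2 samples. The reverse, a sample above the gap with Krt1 under 100 CPM, occurred in 0 of 30, but the gap sets a higher bar for muscle RNA. With the bar at a sum of 1000 CPM it occurred in 1 sample, Nckap1l knockout 9 (1356 CPM). Nckap1l wild type 10 (925.7 CPM) and Dock2 wild type 3 (634.3 CPM) also held some muscle RNA with Krt1 under 10 CPM.

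Over the 30 samples above the gap, the amounts of Krt1 and of the striated muscle genes were weakly related. The relation was closer in the 9 Dok3 samples among them (rho 0.6). Because the samples fall into separate clusters, no correlation over all 160 is given. On log2 values, Pearson's r was 0.19 and Spearman's rho 0.192 over the 30 samples above the gap, and r was 0.273 without the 2 samples farthest from the median. With line means removed, r was 0.02. Within lines it was 0.166 in the 14 Nckap1l samples and 0.557 in the 9 Dok3 samples, where it fell to 0.382 without the 2 farthest. Below the gap r was 0.138 over 130 samples. All these samples share library totals as the denominator of both measures.

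**Figure D4:**
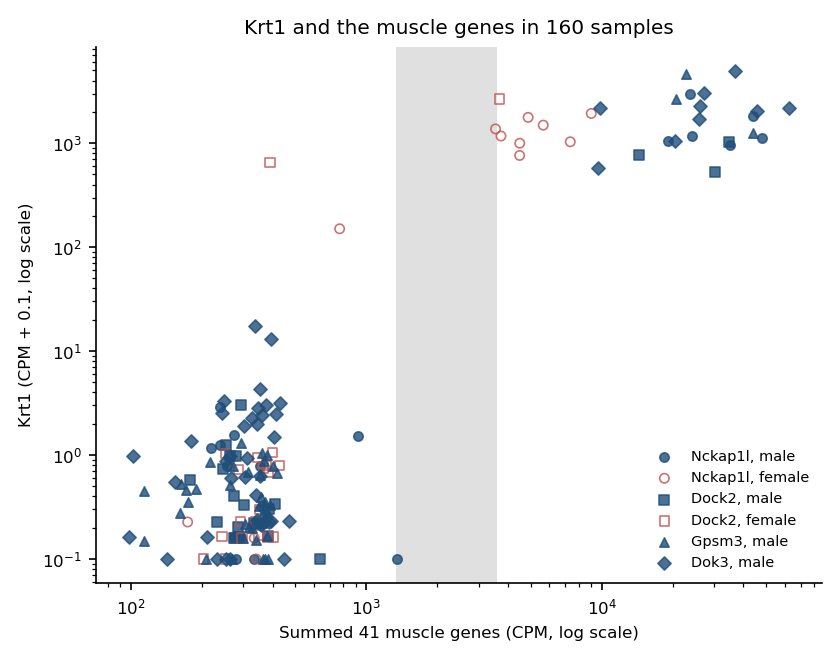
Krt1 (CPM, vertical axis) against the summed CPM of the 41 striated muscle genes (horizontal axis), both on log axes and Krt1 with 0.1 added, with each point 1 of 160 samples, its shape the line, and filled for males and open for females. The 30 samples above the gap all lie at 530 CPM of Krt1 or higher and form a separate cloud in which the 2 measures have r = 0.19.

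Other tissue markers moved with the split to different extents, and their part in it was not tested. Of 34 skin and squamous epithelium genes, 11 had ranges apart, and the list summed to 97.1 to 7610 CPM below the gap and 3510 to 28400 CPM above it. Krt10, the partner of Krt1, lay between 444 and 4020 CPM above the gap and at most at 187 CPM below it. None of the 10 smooth muscle genes (led by Myh11, Acta2 and Des) had ranges apart, with sums of 1230 to 11700 CPM and 3530 to 14300 CPM. The medians of these sums were 6560 CPM below the gap and 8940 CPM above it, so smooth muscle RNA was measured on both sides. None of 12 adipocyte genes (107 to 476 CPM and 211 to 2010 CPM) and none of 10 neutrophil and inflammation genes (22.4 to 17500 CPM and 55.7 to 3380 CPM) had ranges apart. None of 11 male accessory gland genes did either, and their summed level was highest, at 32100 CPM, in 1 sample below the gap.

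Outside the 41 genes, those most like their sum over the 160 samples by Spearman's rho, among genes with a mean of at least 1 CPM, were Myom1 (0.823), 3425401B19Rik (0.823), Pfkm (0.812), Aldh3a1 (0.812), Cyp2f2 (0.81), Sec14l4 (0.791), Pard3 (0.79), Ptpn13 (0.786), Tenm2 (0.773) and Tnfrsf19 (0.771). Myom1 is an M-line protein of the sarcomere and Pfkm the muscle phosphofructokinase, whereas Aldh3a1 is an aldehyde dehydrogenase and Cyp2f2 a cytochrome P450. Pard3 and Ptpn13 overlapped across the gap, as did Myom1 (116 CPM at most below and 86.0 CPM at least above). These rho values describe the same samples and carry no test.

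Whether loss of the targeted gene went with striated muscle RNA was asked in each line by comparing knockout with wild type. None of the genes was called in any line at an adjusted p under 0.05 by edgeR's quasi-likelihood test. In the Nckap1l line 0 of the 38 tested genes passed, and 1 of all 19009 genes did (0.00526%). In the Dock2 line it was 0 of 27 (0.0333% of 18006 genes), in the Gpsm3 line 0 of 24 (0.00569% of 17560) and in the Dok3 line 0 of 29 (0% of 17612). At an unadjusted p under 0.05 the counts were 0 for Nckap1l (4.61% of all genes), 7 for Dock2 (25.9% of members against 5.25% of all genes), 1 for Gpsm3 (4.17% against 4.86%) and 0 for Dok3 (2.19% of all genes). DESeq2 called 0, 3, 0 and 1 of the members and 24, 93, 4 and 3 of all genes in that order, and limma-voom 0 members in each line. The filter on low counts needed counts in many samples of a line, so it could leave out members that were high in only a few. In the Gpsm3 line, with 3 of 40 samples above the gap, 2 of 6 calcium genes were tested. In the Nckap1l line, with 14 of 31 samples above it, members could pass through those samples alone. The counts of 0 do not cover members that were left out.

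Acta1 differed between knockout and wild type by 0.29 ± 1.11 on the log2 scale (SE) in the Nckap1l line, by −1.22 ± 1.47 in Dock2, by 1.29 ± 1.07 in Gpsm3 and by −1.06 ± 0.99 in Dok3. Median log2 fold changes over the tested members were 0.16, −1.40, 1.16 and −1.10 in that order, beside 0.01, 0.00, 0.00 and 0 over all genes. The lowest adjusted p was that of Actn3 in the Dock2 line, at −3.62 ± 1.08 with an adjusted p of 0.284 by edgeR. In the Gpsm3 line Myh2 differed by 2.10 ± 0.82 with an adjusted p of 0.936 by edgeR. Tnni1 differed by −0.02 ± 0.26, 0.17 ± 0.14, 0.00 ± 0.18 and 0.18 ± 0.26 in the 4 lines, with much smaller errors than the fast genes.

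Sex was compared in the 2 lines that had both. In the Nckap1l line 0 of 38 members were called between males and females (0.237% of 19009 genes were), 7 had an unadjusted p under 0.05 (18.4%, against 16.7% of all genes), and DESeq2 called 3 members and 208 of all genes, and limma-voom 0 members. In the Dock2 line 3 of 27 were higher in males and 0 lower by edgeR, against 5.72% of all 18006 genes called higher and 9.79% in either direction. Actn3 was higher by 3.70 ± 1.02 on the log2 scale (adjusted p = 0.0175, edgeR), Mybpc2 by 3.78 ± 1.2 (adjusted p = 0.038, edgeR) and Pgam2, the muscle phosphoglycerate mutase, by 1.37 ± 0.46 (adjusted p = 0.0493, edgeR). The medians of Actn3 were nevertheless 0.814 CPM in females and 0.789 CPM in males, with highest values of 2.85 and 289 CPM, and most samples of both sexes overlapped. Most females of this line have higher sample numbers than the males. In the same comparison 3 of 9 neutrophil and inflammation genes and the 1 tested male accessory gland gene were called higher in males, and 0 of 17 skin genes were called. Their part in the result was not tested. Mybpc2 had medians of 0.94 and 0.938 CPM and highest values of 8.63 and 455 CPM, and Pgam2 medians of 2.80 and 3.41 CPM and highest values of 12.7 and 74.3 CPM. Without Dock2 wild type 7, the sample with the highest sum in that line, 1 of the 3 calls was left, and limma-voom made none. DESeq2 called more members than edgeR here, as given further on, so the count depended on the method.

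In the first Nckap1l run, where nearly all samples held striated muscle RNA, 25 of 38 tested members were called higher in males and none lower by edgeR. Of all 18857 genes, 1.74% were called higher and 1.88% in either direction. The comparison was added after the data had been seen, so its adjusted p-values describe these samples and give no separate evidence of a sex difference. The 5 males carry lower sample numbers than the 9 females, so sex and number order cannot be told apart for any of these genes. Fast filament genes made up 7 of 8 called, with 8 of 13 actin and Z-disc genes, 5 of 6 calcium genes, 5 of 6 energy genes and 0 of 5 slow genes. The members with the largest log2 differences were Myh4, Actn3, Pvalb and Mybpc2. Myh4 was at 20.9 to 2008 CPM in the 5 males and 0.255 to 3.79 CPM in the 9 females, a log2 difference of 8.19 ± 0.91 (adjusted p = 0.000344, edgeR). Actn3, the alpha-actinin of fast glycolytic fibres, was at 105 to 408 CPM in males and 0.509 to 4.25 CPM in females, a difference of 6.51 ± 0.41 (adjusted p = 1.59e-06, edgeR). Neither gene overlapped between the sexes. Mybpc2 (182 to 631 CPM in males and 1.59 to 15 CPM in females) and the parvalbumin gene Pvalb were higher by 5.49 ± 0.45 and 5.56 ± 0.61 (adjusted p = 2.88e-05 and 0.000314, edgeR).

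Other members in this run differed by less. Acta1 was at 915 to 2679 CPM in males and 4.14 to 514 CPM in females, a log2 difference of 2.74 ± 0.64 (adjusted p = 0.045, edgeR), and Ttn missed the threshold at 2.76 ± 0.66 (adjusted p = 0.0528). Myh1 was higher in males by 4.27 ± 0.72 (adjusted p = 0.00642, edgeR), at 541 to 3023 CPM against 0.382 to 206 CPM. Myh2 was at 97.8 to 194 CPM in males and 0.382 to 169 CPM in females, and its difference of 0.99 ± 0.65 was not called (adjusted p = 0.509, edgeR). Tnni1 (0.16 ± 0.32), Tnnc1 (−0.24 ± 0.49) and Tnnt1 (−0.31 ± 0.41) were not called either. The other called members, Ckmt2, Myot, Pgam2, Nrap, Cacna1s, Myoz1, Ldb3, Pygm, Myl1, Atp2a1, Ckm, Ryr1, Tnni2, Tnnt3, Casq1, Mylpf, Eno3, Neb and Klhl41, were higher by 2.04 (Nrap) to 3.74 (Myoz1) on the log2 scale.

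Krt1 did not move with them, at 952 to 1820 CPM in males and 0.127 to 1930 CPM in females, and 0 of 34 skin genes, 0 of 10 smooth muscle genes and 0 of 11 adipocyte genes were called in this comparison. Of 82 other striated muscle genes, 49 were called higher and 1 lower. The count of called members was 15 at an adjusted p under 0.01 and ranged from 13, without wild type 2, to 33, without wild type 8, when each sample was left out in turn.

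**Figure D5:**
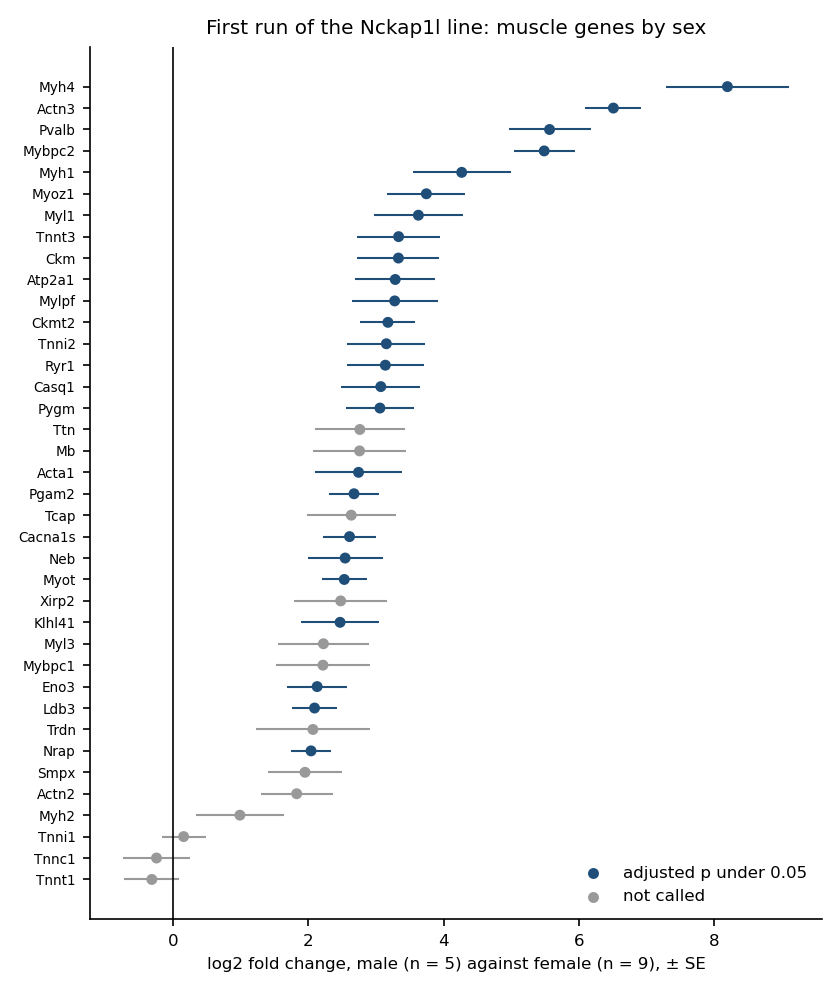
Log2 fold change of males (n = 5) against females (n = 9) in the first Nckap1l run for the 38 tested members, each point the fitted value, each line ± 1 SE, dark where the adjusted p was under 0.05. Myh4 (8.19) and Actn3 (6.51) lie farthest to the right, and Myh2 (0.99), Tnni1, Tnnc1 and Tnnt1 lie nearest to 0.

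Between runs of sample numbers in the Nckap1l line, 37 of 38 members were called by edgeR, where 37.3% of all 19639 genes were. Acta1 was lower than in the first run by 2.87 on the log2 scale in the second and by 5.64 in the third (adjusted p = 0.00189, edgeR). Myh4 differed by −4.92 and −10.20 (adjusted p = 0.000483, edgeR). The member that was not called was Tnni1, at 0.41 and 0.69 (adjusted p = 0.132, edgeR). Other tissue markers moved between these runs as well. The genes called and lower in the second run than in the first were 29 of 34 skin genes, 10 of 10 smooth muscle genes and 9 of 11 adipocyte genes. Of 10 neutrophil genes, 6 were called and higher in the second run. Directions in the third run were not counted. The part of these markers in the difference was not tested. Between runs of the Gpsm3 line 0 of 27 members were called (7.88% of 17939 genes were), with 0 at an unadjusted p under 0.05 and 0 by DESeq2 and by limma-voom. In the Dok3 line it was 0 of 32 (0.143% of 18187 genes), with 1 at an unadjusted p under 0.05, 16 by DESeq2 (112 of all genes) and 0 by limma-voom.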

How the data were processed

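Distal colon RNA was sequenced after ribosomal RNA depletion (stranded kit, single reads). The submitters' processing notes name mm10, STAR, Subread and featureCounts, and the authors deposited 1 file of raw counts per sample. The strand setting of the counting is not given in the sources used here. Of 39179 Ensembl genes, 37693 (96.2%) were named from GENCODE names for GRCm38, which is the same build. Levels are counts per 1000000 counts of a sample (CPM), and values per kilobase use the union of exons. Heat maps and correlations use log2(CPM + 0.1).

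Groups come from the labels (line, genotype, sex). Counts were tested per line with edgeR 4.0.16 (quasi-likelihood, TMM, filterByExpr; R 4.3.3), with a term for sex where both sexes were present (Nckap1l, Dock2), Benjamini-Hochberg adjustment over all tested genes and a threshold of 0.05. Alternatives were DESeq2 1.42.0, limma-voom (limma 3.58.1), DESeq2 size factors, no filter, robust fitting, a threshold of 0.01, run as a covariate, no sex covariate and males only. Females only, fits within runs, leaving out single samples, Myh8 among the heavy chains and the comparison of the sexes in the first Nckap1l run were added after the data had been seen. Scripts were tested on simulated data. Shares and correlations used Python 3.11.15 with scipy 1.17.1.

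The members and marker lists were chosen with earlier results of these data known. Members were accounted for in full, with most detail set for Acta1, Ckm, Myh4, Myh1, Myh2, Myh7, Tnni1 and Tnni2, then for members that passed a test, the 10 other genes most like the members' sum, Krt1, and the 3 most abundant genes of each list, of which only those bearing on a result are named. Genes named outside this rule, such as Myh3, Pax3, Myf6 and Scn4a, were chosen after their values were seen. A correlation over all 160 samples had been planned and was replaced by values within the 2 clusters. Each sample is taken as 1 mouse, and p-values measure the spread between samples as labelled. No samples had identical counts (0 of 160). The count floor of 3 covers counting error only.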

Additional observations from a re-analysis of the deposited data

Results flagged for a closer look

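In the first Nckap1l run, the 5 males and the 9 females were examined for samples that stood apart by Dixon's criterion at the 95% level, on the log2 scale, for the sum and 8 members. Chance alone flags about 1 in 20 groups. Nckap1l wild type 8, a female of that run, lay far below the other 8 females in several measures, with a value of 174 CPM for the summed members, 4.14 CPM for Acta1, 1.72 CPM for Ckm, 0.382 CPM for Myh1, 0.382 CPM for Myh2 and 1.66 CPM for Tnni2. Its Krt1 was at 0.127 CPM as well, and its total count of 15705688 was close to the median of all samples. Among the 5 males, Nckap1l knockout 1 had the lowest Myh1, at 541 CPM. Nckap1l knockout 2 had the highest Myh7, at 4.47 CPM, and the lowest Tnni1, at 14.8 CPM.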

How the results depend on the processing

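Of 341 values recomputed under alternatives for 35 results, 289 were classed as the same and 13 as reversed. For single genes, the same meant an unchanged direction and side of the threshold. For counts and summaries it meant only an equal or similar value. Under DESeq2 the members called were 3 between genotypes in Dock2, 1 between genotypes in Dok3, 3 between sexes in Nckap1l, 10 between sexes in Dock2, 22 between runs in Nckap1l (where fewer members received a p-value) and 16 between runs in Dok3. Between genotypes in Dock2, 1 was called with no filter and 1 without the sex covariate. Between sexes in Dock2, 0 were called with limma-voom, 0 at a threshold of 0.01 and 1 without the sample of highest sum, Dock2 wild type 7. Between sexes in the first Nckap1l run, 15 were called at 0.01 and 13 to 33 when each sample was left out in turn. The samples carrying the members numbered 155, 32, 34 and 30 at a cut-off of 0.5 CPM, at 5 CPM, with at least 31 members and above the gap, against 54. Log2 differences between genotypes in Nckap1l turned to −0.19 for Myh4 with limma-voom, −0.20 for Myh4 and −0.10 for Acta1 in females only, and for Acta1 to −1.44 within the third run and −0.02 without the sample of highest sum. In Dock2 females alone they were 2.23 for Acta1 and 0.13 for Actn3. In Gpsm3, Myh2 was −0.44 with DESeq2 and −1.71 within the first run, where Acta1 was −4.95. Between sexes, Acta1 was −1.0 with limma-voom and −0.24 in the third run alone in Nckap1l, and −0.47 with DESeq2 in Dock2. The cause of these shifts was not tested. Over all genes, DESeq2 called 24 and the fit without a filter 27 between Nckap1l genotypes, against 1. Leaving out the 5 samples whose sex markers went against the label gave 0 members between genotypes and 0 between runs in Dok3. The Myh2 share differed by 30.4 to 33.3 percentage points between the sexes of the first Nckap1l run when each sample was left out in turn. No paired analysis was possible because the labels carry no replicate numbers. Members below a few CPM rest on few counts per sample, and differences there were not detectable at this depth.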
